A study of Mus musculus with 7 samples.

Results

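The genes described here decide whether a B cell leaves G1, the gap phase before DNA replication. They were chosen by name and number 10 of the 48795 genes in the table: the transcription factor Myc, the cyclins Ccnd2, Ccnd3 and Ccne1, the kinases Cdk4 and Cdk6, and the kinase inhibitors Cdkn1a, Cdkn1b, Cdkn2c and Cdkn2d. Their transcripts were measured by bulk RNA sequencing in 7 libraries, 3 of memory B cells (MBCs) and 4 of plasma cells (PCs). Both groups were sorted from spleens of female wild-type C57BL/6 mice, aged 8 to 12 weeks, on day 10 after an intravenous injection of sheep red blood cells (SRBC), a T cell-dependent antigen. CD43 microbeads were used to enrich B cells before the sort. MBCs were B220+ and CD38+, carried CD273 and lacked CD138 and IgD, and PCs were B220lo and CD138+ and lacked IgD. No genetic change or drug separated the groups, so the comparison is between 2 cell populations of immunized mice. The labels do not say whether the libraries of a group came from separate mice, so that p-values measure the spread between these libraries, which may be technical in part.

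Myc is a transcription factor that pairs with Max to bind DNA at E-boxes, and a positively selected germinal center (GC) B cell expresses it before it divides again. Growth signals raise the D cyclins, which switch on Cdk4 and Cdk6, and these kinases phosphorylate the retinoblastoma protein and so free the E2F factors. Cyclin E, encoded by Ccne1, then drives Cdk2 and entry into S phase. The inhibitors form 2 families: p21 and p27 (Cdkn1a and Cdkn1b) act on cyclin-bound kinases, and p18 and p19 (Cdkn2c and Cdkn2d) bind Cdk4 and Cdk6 themselves. Differentiation into PCs is classically tied to the repression of Myc by Blimp-1 (gene Prdm1) and to withdrawal from the cell cycle, for which p18 is known to be needed.

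Promoter sequence was held for 8 of the 10 genes, in 11 windows that run from 250 bases before to 50 bases after a transcription start (RefSeq, GRCm38.p6), and was not held for Myc or Ccnd2. The E-box that Myc and Max bind, CACGTG, which reads the same on both strands, was found in 3 of these 11 windows and in 7.15% of all 32851 windows. Cdk4 carried it 4 times, with first bases 172, 118, 98 and 11 bases before the start. Of all windows 8 (0.0244%) held 4 or more, a cutoff set to the count seen in Cdk4. Cdk6 carried the E-box once, 220 bases before the start. The second of 2 Cdkn2c windows carried it once, 34 bases after the start. The E2F motif TTTCGCGC or TTTGGCGC, on either strand, was in 0 of the 11 windows and in 0.81% of all windows, and the GC box GGGCGG, on either strand, was in 8 of 11 and in 35.66%. The 2 kinase promoters are shown because their genes are the direct partners of the D cyclins and hold E-boxes, written in capitals. Both lie on the plus strand, Cdk4 at chr10:127063285-127063584 and Cdk6 at chr5:3343643-3343942. A match of letters is not evidence of binding.
Cdk4: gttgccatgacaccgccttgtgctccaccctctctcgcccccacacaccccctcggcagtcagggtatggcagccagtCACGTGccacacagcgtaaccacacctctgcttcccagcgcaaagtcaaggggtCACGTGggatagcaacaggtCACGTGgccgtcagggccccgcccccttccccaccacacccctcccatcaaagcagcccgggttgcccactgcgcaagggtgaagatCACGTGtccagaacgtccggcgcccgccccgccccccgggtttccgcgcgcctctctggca
Cdk6: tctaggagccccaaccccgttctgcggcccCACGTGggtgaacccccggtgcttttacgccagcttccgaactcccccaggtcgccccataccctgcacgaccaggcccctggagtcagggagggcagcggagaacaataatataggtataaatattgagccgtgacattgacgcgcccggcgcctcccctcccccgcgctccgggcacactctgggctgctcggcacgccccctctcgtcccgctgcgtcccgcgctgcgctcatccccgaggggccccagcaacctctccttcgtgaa

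Levels are given as scaled TPM, and library values are listed in replicate order. The deposited TPM (the reads of a gene per length, relative to the library's sum) was divided by a library factor, because immunoglobulin transcripts took 49.4% to 55.9% of TPM in PCs and 1.65% to 3.16% in MBCs. TPM holds no read total, so depth is unknown; 11527 to 18061 genes were listed above 0 in the MBC libraries and 14463 to 16768 in the PC libraries. The PC label was met by its markers, with 5 of 5 (Sdc1, Prdm1, Xbp1, Irf4 and Jchain) higher in PCs (limma, adjusted p under 0.05). Over all tested genes 6.41% were higher in PCs by that rule. Sdc1 encodes CD138, on which both groups were sorted, so the gate set its direction. Only PC libraries held Sdc1 at 1 TPM or more. The library labelled MBC replicate 3 went against its gate. Its summed Cd38 and Pdcd1lg2 (CD273) was 9.37 scaled TPM, where the other MBC libraries had 173.6 and 210.2 and PCs 12.7 to 21.3. Its GC B cell markers summed to 663.7 against 244.0 and 270.1 in the other MBC libraries and 70.3 to 139.5 in PCs, with 7 of 7 at their highest there. Its 14 cycling markers summed to 1267 against 231.6 and 230.9, and to 605.0 to 932.4 in PCs. Across tested genes it correlated with the PC libraries at r = 0.70 to 0.777 and with the other MBC libraries at 0.681 and 0.687 (Pearson's r across genes, which are not independent). MBC replicates 1 and 2 correlated with each other at r = 0.675. In the library labelled MBC replicate 3, PC markers summed to 185.9, against 168.9 and 130.2 in the other MBC libraries and 8742 to 14574 in PCs. Its B cell markers summed to 1822, against 3039 and 4833, and to 1075 to 1191 in PCs. The fitted difference of each gene is therefore given with and without this library. The titles also hold codes with 2 prefixes whose meaning the labels do not give: MBC replicate 3 and PC replicate 4 share one prefix, and the other 5 libraries the other. Of the full codes, 3 occurred in both groups. They joined MBC replicate 1 with PC replicate 1, MBC replicate 2 with PC replicate 3, and MBC replicate 3 with PC replicate 4. The main fit treated all libraries as independent.

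With all 7 libraries, none of the 10 genes differed between PCs and MBCs at an adjusted p under 0.05 (limma, adjusted over 11573 tested genes), where 8.55% of tested genes did. All 10 passed the filter on low values, Cdkn1a with MBC replicates 1 and 2 below it. Ccnd2 and Cdkn1a had an unadjusted p under 0.05 (limma), both with higher levels in PCs. The share of all tested genes at that unadjusted p was not computed, so this count has nothing to be set beside. Only Ccnd2 had groups that did not overlap, 1 of 10 genes, where 21.7% of tested genes had none. The fitted difference, PC minus MBC on the log2(scaled TPM + 1) scale, was above 0 for 8 genes and below 0 for Myc and Ccnd3, with a median of 0.71 beside 0.14 over all tested genes. In the fit without the library labelled MBC replicate 3 the signs were the same in number and the median was 1.11 beside 0.19. Without the library labelled MBC replicate 3, Cdk4 and Cdkn1a were higher in PCs at the threshold, 2 of 10 genes, where 21.7% of tested genes passed it and 13.8% did so as higher in PCs. The groups then did not overlap for 4 of 10 genes, where 43.7% of tested genes had no overlap. In bulk libraries, fewer cells of a kind and less RNA per cell cannot be told apart.

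**Figure D1:**
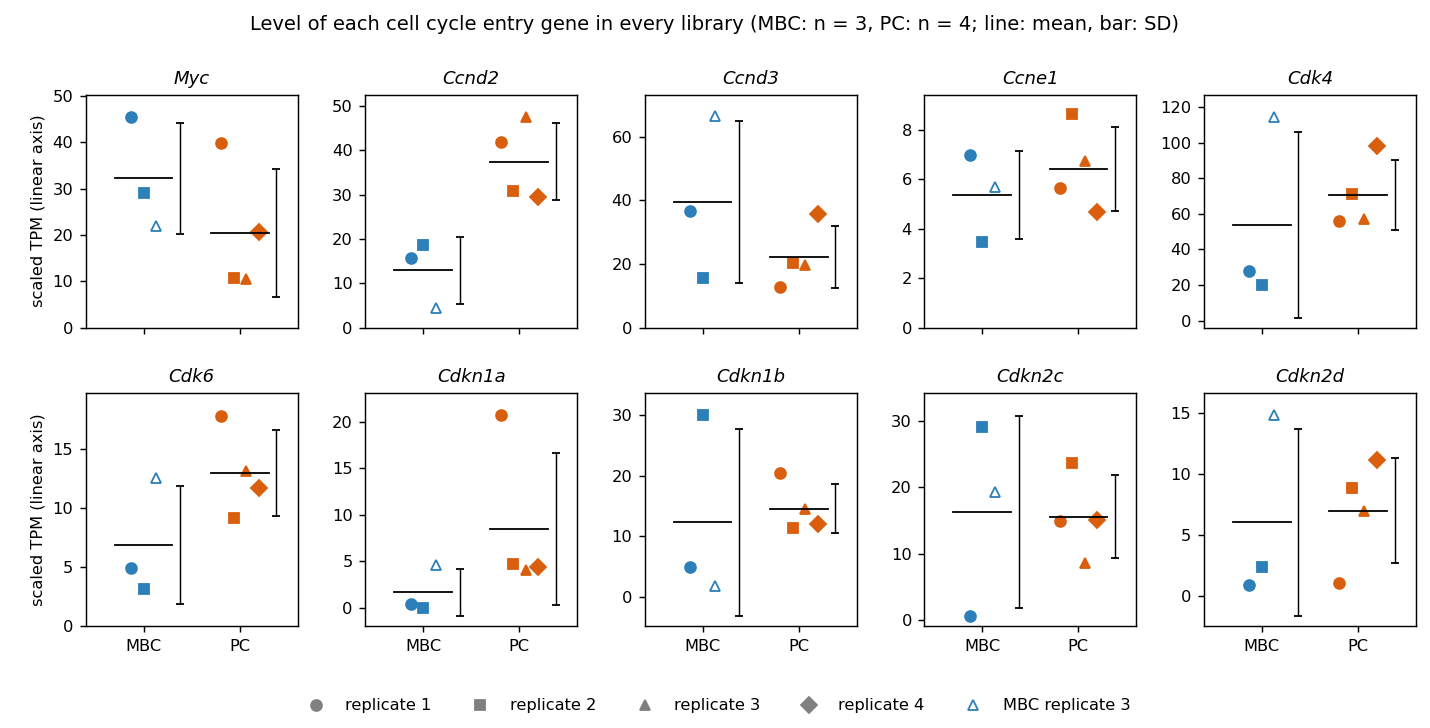
Scaled TPM on a linear axis in each of the 3 MBC and 4 PC libraries for the 10 genes, with a line at the group mean and a bar of 1 SD to the right of each group. Only Ccnd2 has all PC libraries on one side of all MBC libraries, and the open triangle, the library labelled MBC replicate 3, is the highest of all 7 for Ccnd3, Cdk4 and Cdkn2d.

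Myc (ENSMUSG00000022346, GRCm38 chr15:61985391-61990374, plus strand) was at 45.5, 29.1 and 22.01 scaled TPM in the 3 MBC libraries and at 39.8, 10.8, 10.51 and 20.6 in the 4 PC libraries. PC replicate 1 lay among the MBC libraries, and the other 3 PC libraries lay below all of them. The MBC libraries averaged 32.2 ± 12.0 (SD, n = 3) and the PC libraries 20.4 ± 13.7 (SD, n = 4), and the fitted difference was -0.78 on the log2 scale (SE 0.53, 95% interval -1.96 to 0.40, adjusted p = 0.406). Without the library labelled MBC replicate 3 it was -1.01 (adjusted p = 0.250). Myc was the most abundant of the 10 transcripts in MBC replicate 1. Before scaling, the deposited TPM of Myc differed by -2.05 (adjusted p = 0.016), on a scale on which the median of all tested genes was -0.91 and 30.2% of them passed the threshold. Myc transcripts were present in every library of both populations.

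Over the 7 libraries, the tested genes most like Myc by Pearson's r of log2(scaled TPM + 1) were C030005K06Rik (r = 0.974), Ciz1 (r = 0.966) and Gm45548 (r = 0.956). Of the other 11572 genes, 25 had an r of at least 0.9 with it. Over the 6 libraries other than the one labelled MBC replicate 3 the values were 0.985, 0.967 and 0.956, which placed them 1st, 2nd and 9th, and 58 genes had an r of at least 0.9. These values describe 7 points that share libraries. Like Myc, Ciz1 was higher in PC replicate 1 (66.0 scaled TPM) than in the other PC libraries (12.3 to 20.03).

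The fitted differences of the D cyclins had opposite signs, and neither passed the threshold. Ccnd2 (ENSMUSG00000000184, chr6:127125162-127152193, minus strand), the cyclin D2 of signalled B cells, was at 15.8, 18.7 and 4.41 scaled TPM in the 3 MBC libraries and at 42.0, 30.7, 47.4 and 29.6 in the 4 PC libraries. Every PC library was above every MBC library. The averages of 12.98 ± 7.56 (SD, n = 3) for MBCs and 37.4 ± 8.69 (SD, n = 4) for PCs were 2.88-fold apart, with a fitted difference of 1.63 (SE 0.50, 95% interval 0.50 to 2.76, adjusted p = 0.0823), which missed the threshold. It was 1.05 without the library labelled MBC replicate 3, the lowest for this gene (adjusted p = 0.0669), and 1.15 among the 5 libraries of the more frequent title prefix (adjusted p = 0.114). PC libraries kept Ccnd2 in a narrow range, with a highest value 1.604 times the lowest.

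Ccnd3 (ENSMUSG00000034165, chr17:47505051-47599691, plus strand) encodes cyclin D3, on which GC B cells depend for division. It was at 36.5, 15.7 and 66.3 scaled TPM in the 3 MBC libraries and at 12.6, 20.3, 19.7 and 35.8 in the 4 PC libraries. The groups overlapped, and the highest library of each was the one with the rarer title prefix. MBCs averaged 39.5 ± 25.5 (SD, n = 3) and PCs averaged 22.1 ± 9.74 (SD, n = 4), and the fitted difference of -0.68 (SE 0.54, 95% interval -1.89 to 0.53, adjusted p = 0.481) was -0.20 (adjusted p = 0.812) in the fit without the library labelled MBC replicate 3.

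Ccne1 (ENSMUSG00000002068, chr7:38097984-38107534, minus strand) encodes cyclin E1, the partner of Cdk2 at the start of S phase. Its levels were low in both populations, at 6.98, 3.47 and 5.70 scaled TPM in the 3 MBC libraries and at 5.65, 8.64, 6.74 and 4.70 in the 4 PC libraries. The libraries of the groups were interleaved, and MBCs averaged 5.38 ± 1.77 (SD, n = 3) and PCs averaged 6.43 ± 1.69 (SD, n = 4). The fitted difference was 0.23 (SE 0.48, 95% interval -0.85 to 1.32, adjusted p = 0.811), and 0.29 (adjusted p = 0.725) in the fit without the library labelled MBC replicate 3. Its sign depended on the scaling.

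Cdk4 (ENSMUSG00000006728, chr10:127063534-127067920, plus strand) was the most abundant of the 10 transcripts in all 4 PC libraries. It was at 27.6, 19.98 and 114.2 scaled TPM in the 3 MBC libraries and at 55.8, 71.1, 57.0 and 97.9 in the 4 PC libraries. Every PC library lay below the library labelled MBC replicate 3 and above the other MBC libraries. Within each group the highest library was the one with the rarer title prefix. MBCs averaged 53.9 ± 52.3 (SD, n = 3) and PCs averaged 70.4 ± 19.6 (SD, n = 4), with a fitted difference of 0.76 (SE 0.56, 95% interval -0.50 to 2.02, adjusted p = 0.448). Without the library labelled MBC replicate 3, Cdk4 was higher in PCs by 1.51 (SE 0.35, adjusted p = 0.0215, limma). The difference was 0.50 without MBC replicate 1 (adjusted p = 0.660) and 0.28 without MBC replicate 2 (adjusted p = 0.811). Among the 5 libraries of the more frequent prefix the difference was 1.34 (adjusted p = 0.0645).

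Cdk6 (ENSMUSG00000040274, chr5:3341485-3531008, plus strand), the second kinase of the D cyclins, was at 4.94, 3.13 and 12.5 scaled TPM in the 3 MBC libraries and at 17.8, 9.14, 13.1 and 11.7 in the 4 PC libraries. Here MBC replicate 3 (as labelled) lay among the PC libraries, and the other MBC libraries lay below all of them. MBCs averaged 6.87 ± 4.99 (SD, n = 3) and PCs averaged 12.9 ± 3.64 (SD, n = 4). The fitted difference was 0.97 (SE 0.53, 95% interval -0.21 to 2.16, adjusted p = 0.297), and 1.46 without that library (adjusted p = 0.0566).

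Both kinases were lowest in MBC replicates 1 and 2, which also had the lowest sums of the cycling markers, the mitotic and replication genes given above. Of the 14 cycling markers, 0 passed the threshold with all libraries (limma), beside 8.55% of all tested genes. At an unadjusted p under 0.05 there was 1, and the share of all tested genes was not computed for that rule. Without the library labelled MBC replicate 3, 8 of the 14 passed the threshold, beside 21.7% of all tested genes. Of the 14, 12 were highest in that library, and their high sum was part of why it was left out. The count without it was therefore partly set by the choice of library. The part of cycling cells in the kinase result was not tested.

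**Figure D2:**
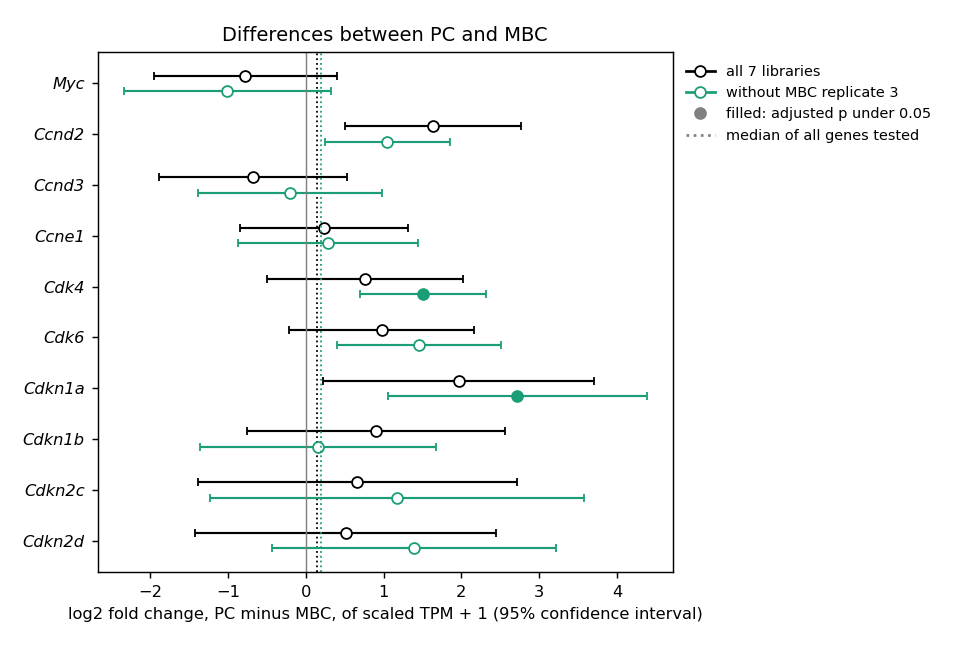
Fitted difference, PC minus MBC on the log2(scaled TPM + 1) scale, with its 95% interval for the 10 genes, with all 7 libraries and without the library labelled MBC replicate 3. Leaving that library out raises the difference for Cdk4 from 0.76 to 1.51 and for Cdkn1a from 1.96 to 2.72, and lowers it for Ccnd2 from 1.63 to 1.05.

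Cdkn1a (ENSMUSG00000023067, chr17:29090976-29100727, plus strand) encodes p21, the inhibitor induced by p53. It was at 0.346 scaled TPM in MBC replicate 1, was listed at 0 in MBC replicate 2 and was at 4.58 in the library labelled MBC replicate 3. In the 4 PC libraries it was at 20.7, 4.76, 4.05 and 4.39. Both of the first MBC libraries were far below all PC libraries, while the library labelled MBC replicate 3 lay among PC replicates 2 to 4. The fitted difference was the largest of the 10 genes, 1.96 (SE 0.78, 95% interval 0.22 to 3.70, adjusted p = 0.158), and missed the threshold. Without the library labelled MBC replicate 3, Cdkn1a was higher in PCs by 2.72 (SE 0.72, adjusted p = 0.0326, limma), and among the 5 libraries of the more frequent prefix the difference was 2.89 (adjusted p = 0.0698). In both of these fits only PC libraries reached the filter of 1 TPM, as MBC replicates 1 and 2 had 0.63 and 0 TPM as deposited. Values so low make the difference depend on the pseudocount: with all 7 libraries it was 3.47 at a pseudocount of 0.1 (limma, adjusted p = 0.155). Both MBC libraries at or near 0 also listed the fewest genes above 0.

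Cdkn1b (ENSMUSG00000003031, chr6:134920401-134925513, plus strand) encodes p27, an inhibitor typical of resting lymphocytes. It was at 5.01, 30.1 and 1.91 scaled TPM in the 3 MBC libraries and at 20.4, 11.5, 14.5 and 12.0 in the 4 PC libraries. The 4 PC libraries all lay inside the range of the MBC libraries, whose highest value was 15.7 times the lowest. MBCs averaged 12.3 ± 15.4 (SD, n = 3) and PCs averaged 14.6 ± 4.07 (SD, n = 4), and the fitted difference was 0.90 (SE 0.74, 95% interval -0.76 to 2.56, adjusted p = 0.5004) and 0.16 (adjusted p = 0.892) in the fit without the library labelled MBC replicate 3. Without MBC replicate 2, the highest library, it was 1.86 (adjusted p = 0.0612) and the groups did not overlap.

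Cdkn2c (ENSMUSG00000028551, chr4:109660876-109667189, minus strand), the gene of p18, was at 0.615, 29.1 and 19.3 scaled TPM in the 3 MBC libraries and at 14.9, 23.7, 8.60 and 15.1 in the 4 PC libraries. MBC replicate 1 had the lowest value and MBC replicate 2 the highest value of all 7 libraries, a 47.3-fold range within the group. Both of these libraries listed fewer genes above 0 than any other library. MBCs averaged 16.3 ± 14.4 (SD, n = 3) and PCs averaged 15.6 ± 6.20 (SD, n = 4), while the fitted difference on the log scale was 0.66 (SE 0.92, 95% interval -1.39 to 2.71, adjusted p = 0.707) and 1.17 (adjusted p = 0.464) in the fit without the library labelled MBC replicate 3. No difference was detected.

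Cdkn2d (ENSMUSG00000096472, chr9:21288410-21291407, minus strand), the gene of p19, was at 0.911, 2.39 and 14.9 scaled TPM in the 3 MBC libraries and at 1.09, 8.89, 6.94 and 11.1 in the 4 PC libraries. PC replicate 1 lay with MBC replicates 1 and 2, and the library labelled MBC replicate 3 was the highest of all. MBCs averaged 6.05 ± 7.66 (SD, n = 3) and PCs averaged 7.01 ± 4.30 (SD, n = 4), with a fitted difference of 0.51 (SE 0.86, 95% interval -1.42 to 2.45, adjusted p = 0.762) and of 1.39 without that library (adjusted p = 0.246).

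The spread among MBC libraries was computed with and without the one labelled MBC replicate 3, and not without either other MBC library. The SD without it rests on fewer MBC libraries. With all 7 libraries the SD of log2(scaled TPM + 1) was larger in MBCs for 9 of 10 genes, all but Myc, beside 77.5% of all tested genes. Its median over the 10 genes was 1.16 in MBCs and 0.465 in PCs, beside 0.912 and 0.472 over all tested genes. Without that library the SD was larger in MBCs for 4 of 10 genes (Ccnd3, Ccne1, Cdkn1b and Cdkn2c), beside 63.2% of tested genes, and the median over the 10 genes was 0.513 in MBCs. In PCs the widest ranges were those of Cdkn2d (10.2-fold), Cdkn1a (5.13-fold) and Myc (3.79-fold). The order of levels changed with the library. Cdk4 was the highest of the 10 in all PC libraries and in the library labelled MBC replicate 3, Myc in MBC replicate 1 and Cdkn1b, just above Myc, in MBC replicate 2. Among the 5 libraries of the more frequent title prefix, differences ran from -1.08 for Myc to 2.89 for Cdkn1a, and none of the 10 genes passed the threshold (limma), where 11.1% of tested genes did. The rarer prefix has 1 library per group and gives no test.

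Shares within each family do not depend on the scaling between libraries. Ccnd2 made up 29.9%, 51.0% and 6.16% of D cyclin TPM in the 3 MBC libraries and 76.3%, 58.4%, 68.8% and 44.8% in the 4 PC libraries. PC replicate 4 fell below MBC replicate 2, so that the groups overlapped. The mean share was 29.0% ± 22.4 for MBCs (SD, n = 3) and 62.1% ± 13.7 for PCs (SD, n = 4), a difference of 33.0 percentage points with a two-sided exact permutation p of 0.0857 (adjusted over 4 families, 0.343; the smallest p that 35 assignments allow is 0.0286). Cdk4 made up 87.1% ± 2.71 (SD, n = 3) of the Cdk4 and Cdk6 TPM for MBCs and 83.8% ± 6.42 (SD, n = 4) for PCs (exact permutation p = 0.429, adjusted 0.743). Leaving out the library labelled MBC replicate 3 gave differences of 21.6 points for Ccnd2 (exact permutation p = 0.20) and -1.87 for Cdk4 (exact permutation p = 0.80). In all 7 libraries the Cdk4 share was between 75.8% and 90.1%.

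The inhibitor shares spread widely over the MBC libraries. Cdkn1a made up 6.46%, 0% and 70.6% of the Cdkn1a and Cdkn1b TPM in the 3 MBC libraries and 50.5%, 29.3%, 21.9% and 26.7% in the 4 PC libraries. All PC libraries lay between MBC replicate 1 and the library labelled MBC replicate 3 (exact permutation p = 0.743, adjusted 0.743). Cdkn2c made up 40.3%, 92.4% and 56.5% of the Cdkn2c and Cdkn2d TPM in the 3 MBC libraries and 93.2%, 72.7%, 55.3% and 57.7% in the 4 PC libraries (exact permutation p = 0.686, adjusted 0.743). Cdkn2c was the larger share in every library but MBC replicate 1. In the comparison of 2 MBC with 4 PC libraries, leaving out the third MBC library, the differences were 28.9 points for Cdkn1a (exact permutation p = 0.0667, the smallest that design allows) and 3.39 for Cdkn2c (exact permutation p = 0.933).

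**Figure D3:**
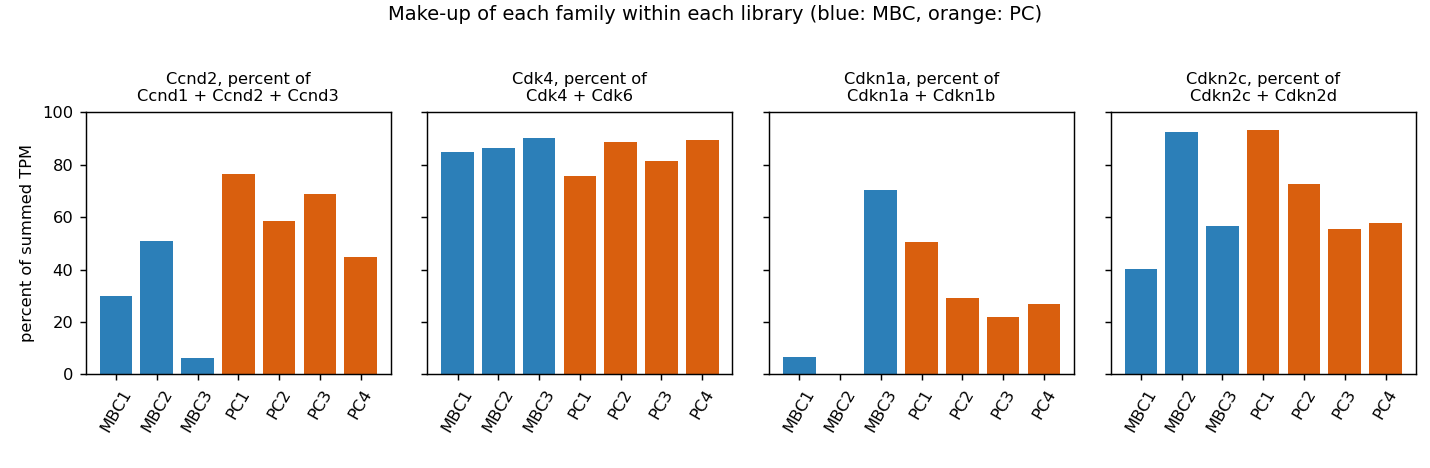
Share of TPM (percent, linear axis from 0) taken by Ccnd2 among D cyclins, Cdk4 among Cdk4 and Cdk6, Cdkn1a among Cdkn1a and Cdkn1b, and Cdkn2c among Cdkn2c and Cdkn2d in each library, with 1 bar per library (MBC blue, PC orange). The Cdk4 share stays between 75.8% and 90.1% in all libraries, while the Ccnd2 share has a mean of 29.0% in MBCs and 62.1% in PCs with overlap.

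Around the 10 genes, 73 further genes of the pathway fell into 6 lists, and 68 of them passed the filter. With all 7 libraries 4 passed the threshold, 3 higher and 1 lower in PCs, and 18 did without the library labelled MBC replicate 3, 16 higher and 2 lower. These are beside 8.55% and 21.7% of all tested genes. Of the 18, 8 were cycling markers, whose high sum in that library was part of why it was left out.

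In the Myc network 1 of 11 tested genes passed, and Mycn and Mycl did not pass the filter (median difference 0.60, beside 0.14 over all tested genes, and 0.61 beside 0.19 without the library labelled MBC replicate 3). Mxd1, which competes with Myc for Max and represses, rose in PCs. It was at 0.0768, 0.0404 and 0.994 scaled TPM in the 3 MBC libraries and at 4.22, 6.76, 5.20 and 5.48 in the 4 PC libraries, a difference of 2.28 (SE 0.48, adjusted p = 0.0179) and of 2.59 (adjusted p = 0.0091) in the fit without the library labelled MBC replicate 3. The call was lost, at an adjusted p of at most 0.0723 with differences of 2.14 to 2.29, when MBC replicate 1 or PC replicate 2, 3 or 4 was left out. In the fit without the library labelled MBC replicate 3, only PC libraries reached the filter of 1 TPM for Mxd1. Max, the partner of both, was at 101.0, 113.0 and 46.1 in the 3 MBC libraries and at 40.5, 30.0, 29.7 and 37.4 in the 4 PC libraries, without overlap. Its difference of -1.22 (SE 0.39, adjusted p = 0.0913) missed the threshold, and without that library it passed at -1.62 (adjusted p = 0.0089).

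Among 14 genes known as Myc targets, 1 rose in PCs and 0 fell (median 0.27, and 0.54 with MBC replicate 3 left out). Srm, spermidine synthase, was at 6.31, 17.6 and 20.1 scaled TPM in the 3 MBC libraries and at 55.5, 75.6, 64.8 and 69.8 in the 4 PC libraries. That is a difference of 2.24 (SE 0.43, adjusted p = 0.0114), where the fitted difference of Myc was -0.78. It was 2.53 (adjusted p = 0.0063) in the fit without the library labelled MBC replicate 3 and 0.97 (adjusted p = 0.137) on TPM as deposited. Cad, the enzyme that starts pyrimidine synthesis, had a difference of 1.61 (adjusted p = 0.115), and of 1.44 in the fit without that library (adjusted p = 0.145).

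Of the other inhibitors and p53 axis genes, 6 of 9 were tested, and the antiproliferative pair Btg1 and Btg2 passed in opposite directions (median of the list 0.50, and 0.37 with MBC replicate 3 left out). Btg1 fell from 166.3, 139.6 and 47.8 scaled TPM in the 3 MBC libraries to 27.3, 15.01, 21.1 and 17.3 in the 4 PC libraries, a difference of -2.34 (SE 0.47, adjusted p = 0.0148). Btg2, which p53 induces, rose from 17.3, 37.5 and 18.6 to 74.8, 87.7, 77.8 and 66.1, a difference of 1.69 (SE 0.37, adjusted p = 0.0201). On TPM as deposited the Btg2 difference was 0.40 (adjusted p = 0.411). Btg1 lost its call without MBC replicate 1 (-2.001, adjusted p = 0.0522) or PC replicate 2 (-2.22, adjusted p = 0.0529). Btg2 lost its call when MBC replicate 1 or any of the 4 PC libraries was left out, with differences of 1.49 to 1.75 and adjusted p of 0.0540 to 0.0847. Leaving out MBC replicate 3 gave -2.89 for Btg1 (adjusted p = 0.0015) and 1.54 for Btg2 (adjusted p = 0.0233). Cdkn1c, Cdkn2a and Cdkn2b did not pass the filter.

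The remaining lists, which hold the machinery that the D cyclins act on, held no gene past the threshold with all 7 libraries. No share of all tested genes was computed at an unadjusted p under 0.05. Of 10 other G1 cyclins, kinases and activators 1 had such a p (limma, median difference 0.27), and of 13 pocket protein and E2F genes also 1 (median 0.44). With MBC replicate 3 left out these medians were 0.75 and 1.14, and Cks1b and Skp2, which help to degrade p27, were higher in PCs, and so were Rbl1, Tfdp2 and E2f8. Cks1b was far lower in MBC replicates 1 and 2 than in the other 5 libraries, at 0.823, 0.303 and 78.1 scaled TPM in the 3 MBC libraries and at 29.1, 72.1, 29.1 and 72.6 in the 4 PC libraries. MBC replicates 1 and 2 also listed the fewest genes above 0, 12983 and 11527, and the part of depth was not tested. The Cks1b difference was 3.04 with all libraries (limma, adjusted p = 0.171) and 4.93 without the third MBC library (limma, adjusted p = 0.00104). Tfdp2, a partner of E2F, had a difference of 1.94 (adjusted p = 0.0971) and then of 2.59 (adjusted p = 0.0134). Tfdp2 was at 0.318 and 0.121 scaled TPM in MBC replicates 1 and 2, so that in the second fit only PC libraries reached the filter of 1 TPM. E2f8 had 2.06 (adjusted p = 0.239) and then 3.55 (adjusted p = 0.0018). Cdc25a, the phosphatase that activates Cdk2, had 1.04 (adjusted p = 0.229) and then 1.35 (adjusted p = 0.0752).

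The 14 cycling markers had a median of 1.05 with all 7 libraries, and all 14 differences were above 0. The median rested on single MBC libraries. It was 0.66 without MBC replicate 1 (12 of 14 above 0), 0.27 without MBC replicate 2 (11 of 14 above 0) and 1.83 without the library labelled MBC replicate 3 (14 of 14 above 0). Tyms, thymidylate synthase, was at 0.0604 in MBC replicate 1, was listed at 0 in MBC replicate 2 and was at 53.1 in the library labelled MBC replicate 3, with 31.2 to 56.0 scaled TPM in PCs. Its difference was 3.52 (limma, adjusted p = 0.115) and 5.42 without that library (limma, adjusted p = 2.0e-04). In the second of these fits only PC libraries reached the filter of 1 TPM for Tyms. Birc5, survivin, had 2.40 with all libraries (limma, adjusted p = 0.231) and 4.09 without that library (limma, adjusted p = 0.0027). High cycling markers were part of why that library was left out, so the values without it are not a separate test. MBC replicates 1 and 2, which remain, listed the fewest genes above 0.

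**Figure D4:**
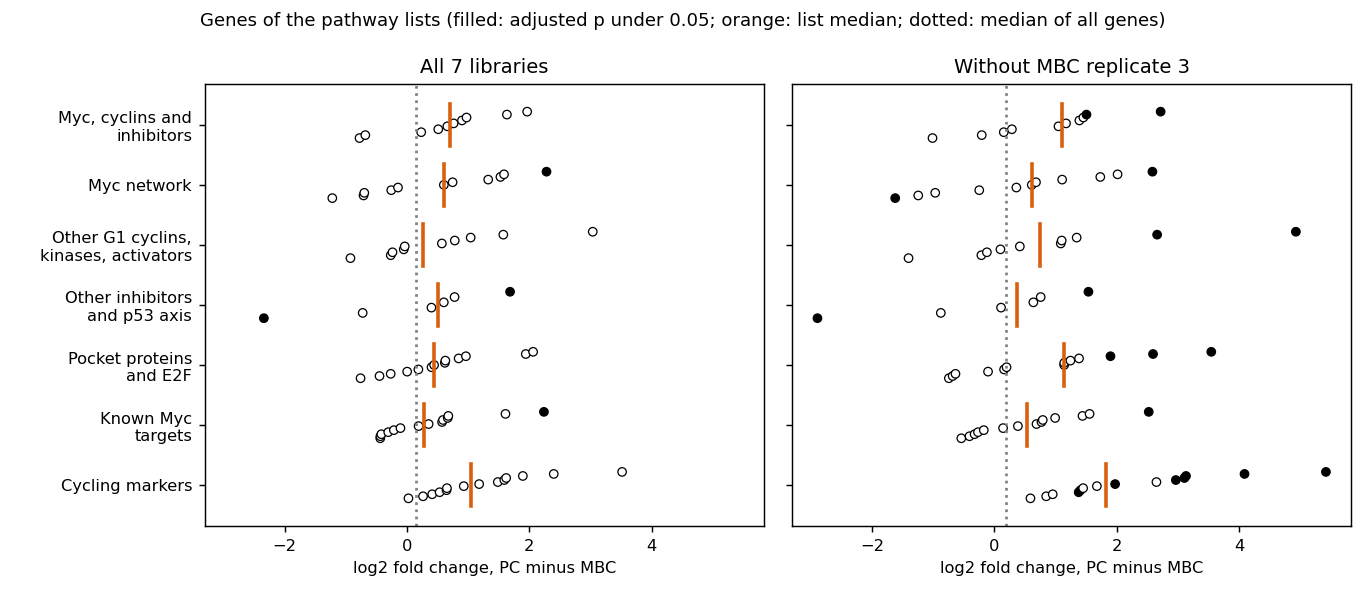
Fitted difference, PC minus MBC on the log2(scaled TPM + 1) scale, for each tested gene of the 6 pathway lists and of the 10 genes, with all 7 libraries (left) and without the library labelled MBC replicate 3 (right). Filled points have an adjusted p under 0.05, orange lines are list medians and dotted lines the median of all tested genes. The median of the cycling markers is 1.05 on the left and 1.83 on the right; it was 0.66 and 0.27 without MBC replicates 1 and 2, which are not drawn.

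Markers of other cell types were measured beside these genes. The 7 T cell markers summed to 0 to 23.8 scaled TPM in MBCs and to 62.8 to 79.4 in PCs, with Cd3g and Cd8a at 0 in all MBC libraries. Of the 3 that passed the filter 2 were higher in PCs, Cd28, at 41.9 to 55.7 in PCs and a receptor that PCs also carry, and Cd3e, at 3.86 to 14.2. Over all tested genes 6.41% were called higher in PCs. Cd28 was at 0, 0 and 0.0292 in the 3 MBC libraries and reached the filter only in PC libraries. The third marker that passed the filter, Lck, was at 14.3, 0 and 23.0 in the MBC libraries and at 0.629 to 5.03 in PCs. Its difference was -0.85 (limma, adjusted p = 0.669). The 6 myeloid markers summed to 2.32 to 29.0 in MBCs and to 2.15 to 7.68 in PCs, with S100a8 at 0 in all MBC libraries and Cd14 at 0 in all PC libraries. Ccnd2, the 1 gene of the 10 without overlap, was at 29.6 to 47.4 in PCs, and the part of T cell transcripts in it was not tested. Of the 10 genes, 5 overlap a gene on the opposite strand in GENCODE M21, and whether counting used strand is not given in the sources used here. Ccnd3 shares 361 bases with Bysl and Cdk4 shares 641 with Tspan31, both protein-coding, and Ccnd2, Cdk6 and Cdkn1a overlap noncoding or unclassified models.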

How the data were processed

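The members and gene lists were chosen with earlier results of these data known. Sample descriptions gave each library's group and replicate. A Nugen kit made the cDNA, which was read on an Illumina HiSeq. The authors deposited TPM for 48795 Ensembl genes. The submitters' processing notes name STAR 2.5.2a, RSEM 1.3.0, DESeq2 1.18.1 and GRCm38 without their roles, and the annotation release is not given in the sources used here. Symbols (48349 genes) and coordinates came from GENCODE M21, also on GRCm38.

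Scaled TPM is TPM over a library factor, the median over 9305 genes (those no library lists at 0) of TPM against the gene's geometric mean, with factors of 1.48 to 2.05 in MBCs and 0.636 to 0.813 in PCs. Testing covered the 11573 genes with 1 TPM or more in 3 or more libraries, on the log2(scaled TPM + 1) scale, on which changes of low genes are understated, by limma 3.58.1 in R 4.3.3 (lmFit, eBayes with trend), all 7 libraries and no covariate. Calls required an adjusted p under 0.05 (Benjamini-Hochberg, over all tested genes). The procedure was tested on simulated data. These gave both groups the same spread per gene, unlike the real libraries, and held no library against its gate. Family shares used deposited TPM and a two-sided exact permutation test over 35 assignments. No 2 libraries were copies, since at least 99.3% of genes above 0 differed in any pair. The other steps ran in Python 3.11.15 with numpy 2.4.6 and pandas 2.3.3. All 10 genes are named, and in each list the genes called, at most the 4 with the smallest p, with those of smallest p added up to 2. For Myc, and for any of the 10 genes called, the 3 most alike genes are named. Alternatives changed the scaling, pseudocount, filter, library weights, blocks and libraries.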

Additional observations from a re-analysis of the deposited data

Results flagged for a closer look

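Of 26 values examined for a library far from the rest of its group, 1 was found, where about 1.3 would be by chance at 1 in 20. Cdkn1a was at 20.75 scaled TPM in PC replicate 1, and the other 3 PC libraries were at 4.05 to 4.76. The gap to the nearest was 0.958 of the range of the group, above Dixon's 95% critical value for 4 libraries. Groups of 3 libraries were not examined.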

How the results depend on the processing

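TPM holds no depth, and 3 MBC libraries with 1 against its gate set the precision. The number of the 10 genes called was 0, and 2 on TPM as deposited (Myc and Ccnd3, both lower in PCs), with 0 to 2 when a library was left out (2 without MBC replicate 3) and 0 under the other alternatives. The pathway genes called numbered 4 (3 higher and 1 lower in PCs). They were 11 on TPM as deposited (0 higher and 11 lower, with Btg1 the 1 gene in common), 7 after quantile normalization (3 higher and 4 lower), 2 with all genes above 0 tested, 11 within the more frequent title prefix (9 higher and 2 lower) and 1 to 18 when a library was left out (18 without MBC replicate 3). The 990 genes called overall became 3500 on TPM as deposited and 566 with all genes above 0 tested, and 542 to 2516 when a library was left out (2516 without MBC replicate 3, 542, 604 and 580 without PC replicates 2, 3 and 4). Calls split 742 higher and 248 lower in PCs, 474 and 3026 on TPM as deposited, 394 and 431 without immunoglobulin genes, and 629 and 490 after quantile normalization. The median of all genes moved from 0.14 to -0.91, -0.11 and -0.15 in these.

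Signs turned on TPM as deposited for Ccne1 (-0.91), Cdk4 (-0.54), Cdk6 (-0.21), Cdkn1b (-0.25), Cdkn2c (-0.45), Cdkn2d (-0.49) and Cdc25a (-0.12), where the median gene was at -0.91. Ccne1 also turned without immunoglobulin genes (-0.017), after quantile normalization (-0.048) and without MBC replicate 2 (-0.0039). With a library left out, Ccne1 ranged from -0.0039 to 0.41, Cdk4 from 0.28 to 1.51, Cdkn1b from 0.16 to 1.86, Cdkn2c from -0.65 to 1.46 and Cdkn2d from -0.13 to 1.39, the last 2 below 0 without MBC replicate 1. With a library left out, the Cdkn1a share differed by -6.40 to 28.9 percentage points (-3.17 without MBC replicate 1, -6.40 without MBC replicate 2) and the Cdkn2c share by -4.70 to 21.4 (-4.70 without MBC replicate 1, -1.14 without PC replicate 1). Of 352 values of 22 named genes under alternatives, 298 kept sign and side of the threshold, 23 lost a call, 19 gained one and 12 turned. Mxd1 lost its call in 8 of 16 alternatives, Btg2 in 9, Btg1 in 4 and Srm in 2. The causes were not tested.

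Same-numbered libraries did not deviate together (r of deviations 0.109, -0.0398 and -0.0832), nor did all that shared a title code (0.109, -0.00436 and 0.222). Pairs without a shared title code had r of -0.176 to 0.152. The PC library of the same code had the highest r for MBC replicates 1 and 3, but not for MBC replicate 2. So few values cannot decide whether libraries were paired, and the main fit used no pairing. With the replicate block 450 genes, 0 of the 10 and 0 pathway genes were called, so that Mxd1, Btg1, Btg2 and Srm lost their calls. With the title code block the numbers were 517, 0 and 2, and Mxd1 and Btg2 lost their calls. The spread and likeness values without MBC replicate 3 were added after the data were seen. Not every library correlated best with its own number.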
